A study of Mus musculus with 6 samples.

Results

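The 8 genes described here encode chemokine receptors: Cxcr4, Ccr1, Ccr2, Ccrl2, Cx3cr1, Ccr7, Ccr9 and Cxcr3. They were taken from the deposited table by gene symbol, and all 8 were found among its 16440 genes. RNA-seq had been run on 6 libraries of sorted mouse bone marrow (BM) cells, 3 per group, in the strain labelled FVB N/J. One group was c-Kit+ cells of acute promyelocytic leukemia (APL) from hMRP8-PML/RARα transgenic mice, in which the promoter of the human MRP8 gene drives the PML/RARα fusion in myeloid cells. These cells carried GFP from the retroviral vector MigR1, had been grown in syngeneic recipients, and were sorted as GFP+ c-Kit+. The other group was normal Lin-Sca-1-c-Kit+ BM cells, called normal myeloid progenitors (MPs), for which no transgene, vector or transplantation is given. The 3 libraries of a group are given as biological replicates, and whether each came from its own mouse was not given in the sources used here. The p-values below measure the spread between these libraries.

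Chemokines are small secreted proteins that guide leukocytes, and their receptors are G-protein-coupled proteins of the cell surface. A bound receptor signals through Gi proteins to phosphoinositide 3-kinase and Rac, which move the cell. Receptor kinases and arrestins then switch the receptor off, and RGS proteins shorten the G-protein signal. In the BM, Cxcr4 is known for holding stem and progenitor cells near stromal cells that make Cxcl12, and Ccr2 for the exit of monocytes into blood.

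Each library held between 20608715 and 28382785 fragments before scaling. The values given below are scaled fragments, which are estimated fragments per gene after a scaling of each library in the authors' processing, 1 fragment being worth 0.867 to 1.23. All 48 values of the 8 receptors (8 genes in 6 libraries) came out as whole fragments, within 0.1 of a whole number, once that scaling was undone. Kit, the gene of the sorted surface marker, was present in both groups at 10668 ± 272 scaled fragments (SD, n = 3) in normal MPs and 5929 ± 132 in APL progenitors. The progenitor marker Cd34 was 6684 ± 1096 and 82.6 ± 8.40 in the same order. Kit and Cd34 were the 2 that fell of 6 granulocyte-monocyte progenitor markers, while 3 rose (Mpo, Elane and Ctsg) and 1 was not called. The summed level of these 6 was 8540 to 9615 FPKM in normal MPs and 22961 to 27425 in APL. The 6 tested erythroid marker genes of a list of 7 were all lower in APL, with a summed level of 1500 to 1977 FPKM against 12.2 to 23.2. Most of these markers moved with the groups, in both directions, and their part in the receptor differences was not tested. In bulk RNA, fewer cells of a type and less RNA per cell cannot be told apart.

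Compared with normal MPs, c-Kit+ APL progenitors had more RNA of Cxcr4, Ccr1, Ccr2 and Ccrl2 and less of Cx3cr1, Ccr7 and Ccr9, whereas Cxcr3 was near the detection limit in both groups. Cxcr4 was the most abundant receptor per length in both groups and rose 3.82-fold. Ccr1 rose 6.76-fold and Cx3cr1 fell 7.07-fold. A gene was called when limma gave an adjusted p under 0.05 over all genes tested and a fold change over 1.5, on log2(scaled fragments + 1). By this rule 4 receptors were called up, 3 down and 1 in neither direction. The comparison moved much of the transcriptome: of 14595 genes tested, 46.1% were called, 21.7% up and 24.4% down. The 3 libraries of one group lay wholly above those of the other for 7 of the 8 receptors, and for 70.9% of all genes tested. These counts of receptors are read as a description against that background. Ccr7 and Ccr9 passed the filter on low values (at least 1 scaled fragment in at least 3 libraries) through the normal MPs alone. Their calls therefore carry little.

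Promoter sequences are shown for the abundant receptor Cxcr4, for Ccr1 and Ccr2, which rose with it, and for Cx3cr1, which moved the other way. They are RefSeq sequences of GRCm38.p6, 5′ to 3′ on the strand of the gene, from 250 bases before to 50 bases after the annotated start. The windows are chr1:128592250-128592549 (minus strand) for Cxcr4, chr9:123968643-123968942 (minus) for Ccr1, chr9:124101933-124102232 (plus) for Ccr2 and chr9:120068247-120068546 (minus) for Cx3cr1. Capitals mark matches, on either strand, to 4 short motifs named below.
Cxcr4: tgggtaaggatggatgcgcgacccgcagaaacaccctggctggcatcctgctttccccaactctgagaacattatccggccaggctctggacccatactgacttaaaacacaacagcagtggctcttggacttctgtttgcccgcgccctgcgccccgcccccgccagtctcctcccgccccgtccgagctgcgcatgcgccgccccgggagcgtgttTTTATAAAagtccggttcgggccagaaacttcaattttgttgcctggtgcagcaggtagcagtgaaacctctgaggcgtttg
Ccr1: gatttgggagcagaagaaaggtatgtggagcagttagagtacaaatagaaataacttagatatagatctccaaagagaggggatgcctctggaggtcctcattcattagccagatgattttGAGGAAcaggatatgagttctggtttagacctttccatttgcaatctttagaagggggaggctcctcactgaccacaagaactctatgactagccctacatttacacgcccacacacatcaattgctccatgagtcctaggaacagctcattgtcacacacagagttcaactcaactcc
Ccr2: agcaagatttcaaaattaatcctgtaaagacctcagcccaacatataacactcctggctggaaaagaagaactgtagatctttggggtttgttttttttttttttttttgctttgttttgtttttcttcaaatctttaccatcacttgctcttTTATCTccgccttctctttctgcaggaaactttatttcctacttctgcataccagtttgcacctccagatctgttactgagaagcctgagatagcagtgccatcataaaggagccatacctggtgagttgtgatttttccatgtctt
Cx3cr1: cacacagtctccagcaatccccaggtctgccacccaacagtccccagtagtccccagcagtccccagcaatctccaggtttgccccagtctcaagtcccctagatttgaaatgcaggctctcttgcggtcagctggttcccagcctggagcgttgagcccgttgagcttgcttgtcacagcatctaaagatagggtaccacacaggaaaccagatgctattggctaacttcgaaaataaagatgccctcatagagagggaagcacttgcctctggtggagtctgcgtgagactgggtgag

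Both strands were searched for AGGTCA, the core of a retinoic acid receptor half-site, which 16.3% of 32851 RefSeq promoter windows of this length held. The letters GAGGAA, an ETS core of the kind that the myeloid factor PU.1 binds, were in 28.3% of the windows. The letters AGATAA, the site of factors such as Gata1, were in 11.2% of the windows. The letters TATAAA, the common form of the TATA motif, were in 13.6% of the windows. Of the 8 receptors, 7 had a window in the RefSeq set. TATAAA matched in Cxcr4 at -30 from the start on the strand of the gene, as printed, overlapping a match on the opposite strand at -32. GAGGAA matched in Ccr1 at -129 and in Cxcr3 at -14, and AGATAA matched in Ccr2 at -97 and in 2 of the 3 windows of Ccrl2. The Ccr9 and Cx3cr1 windows held none of the 4 motifs, and AGGTCA was found in no receptor window. The Cxcr4 window held 20 CpG dinucleotides and the Ccr1 and Ccr2 windows 1 each, against a median of 7 over all windows, and GC content was 59.3% in Cxcr4, 44% in Ccr1, 38% in Ccr2 and 54.3% in Cx3cr1. No motif of the 4 was in the windows of all 4 receptors that rose.

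Cxcr4 (gene ID 12767, chr1:128588199-128592299) is the receptor of Cxcl12. Its scaled fragments were 1927, 1859 and 1918 in normal MPs and 7173, 7842 and 6803 in APL progenitors. All APL libraries lay far above all MP libraries, and the MP libraries were nearly equal. The means were 1902 ± 36.9 and 7273 ± 527 (SD, n = 3 each). On the log2 scale Cxcr4 rose by 1.93 ± 0.073 (SE; 95% interval 1.77 to 2.10, limma adjusted p = 7.11e-08), and 7.29% of genes tested had a larger one. Per length, 11.3% of genes tested were higher than Cxcr4 in normal MPs and 2.82% in APL. The two-sided exact permutation test gave p = 0.1 for this gene and for each of the other 6 receptors whose groups were separate, which is the smallest that 3 against 3 libraries allow.

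Ccr1 and Ccr2, receptors of inflammatory chemokines on myeloid cells, lie in the same gene cluster of chromosome 9 and both rose. Ccr1 (gene ID 12768, chr9:123962126-123968692) stood at 92.7, 65.7 and 58.6 scaled fragments in normal MPs and at 495, 510 and 453 in APL progenitors. The lowest APL library was thus several times the highest MP library. Its log2 fold change was 2.76 ± 0.18 (SE; 95% interval 2.35 to 3.17, limma adjusted p = 1.67e-06). On log2(FPKM + 1), where its level in normal MPs (0.914 FPKM) is near the pseudocount, the log2 difference was 1.89. Ccr2 (gene ID 12772, chr9:124102183-124109140) stood at 643, 506 and 521 scaled fragments in normal MPs and at 1278, 1224 and 1305 in APL progenitors. Every APL library was above every MP library and the APL libraries were close to each other. Its log2 fold change was 1.19 ± 0.10 (SE; 95% interval 0.96 to 1.43, limma adjusted p = 9.99e-06), a 2.29-fold rise.

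Monocytes carry both Ccr1 and Ccr2, so their markers are given beside these receptors. Of 8 monocyte marker genes, all tested, 4 rose (Ly6c2, F13a1, Emr1 and Cd14) and 3 fell (Csf1r, Ly86 and Ms4a6c), and none was at 0 in all libraries of a group. Their summed level ranged from 883 to 1057 FPKM in normal MPs and from 10884 to 11210 in APL, of which Ly6c2 alone made up 790 to 945 and 10600 to 10915. The other 7 markers summed to 92.4 to 112 FPKM in normal MPs and 270 to 295 in APL. Csf1r, the receptor of macrophage colony-stimulating factor, was 1415 ± 125 scaled fragments in normal MPs and 405 ± 47.3 in APL. Both groups were sorted for c-Kit and the normal MPs also as lineage-negative, while no lineage gate is given for the APL cells. The part of mature monocytes in the rise of Ccr1 and Ccr2 was not tested.

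Ccrl2 (gene ID 54199, chr9:111054835-111057270) encodes a receptor-like protein that binds chemerin and presents it to cells that carry Cmklr1. Its scaled fragments were 99.3, 50.5 and 101 in normal MPs and 217, 201 and 260 in APL progenitors. MP library 2 was well below the other MP libraries, and the groups did not overlap. The log2 fold change was 1.48 ± 0.27 (SE; 95% interval 0.87 to 2.09, limma adjusted p = 0.00105), and it was 1.16 without MP library 2. Cmklr1, the signalling receptor for chemerin, had 5, 4 and 4 fragments before scaling in normal MPs and 0, 1 and 0 in APL, and passed the filter through the normal MPs alone.

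Cx3cr1 (gene ID 13051, chr9:120048683-120068296) is the receptor of the membrane-bound chemokine Cx3cl1 and marks monocytes, macrophages and their progenitors. It stood at 172, 143 and 179 scaled fragments in normal MPs and at 20.03, 22.5 and 24.7 in APL progenitors. The highest APL library was far below the lowest MP library, and the APL libraries differed little. The log2 fold change was -2.82 ± 0.19 (SE; 95% interval -3.26 to -2.39, limma adjusted p = 2.08e-06). On log2(FPKM + 1) it was -1.03, since both group means, 1.46 ± 0.165 and 0.199 ± 0.0194 FPKM, are near the pseudocount.

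Ccr7 and Ccr9, homing receptors of lymphoid tissue and of gut and thymus, were low in normal MPs and almost absent in APL. Ccr7 (gene ID 12775, chr11:99144199-99155077) had 6, 10 and 10 fragments before scaling in normal MPs and 0, 1 and 0 in APL progenitors. The total of 26 against 1 corresponded to a ratio of 22.7 after scaling, with a 95% counting interval of 3.72 to 929, so the size of the fall is poorly set. Ccr9 (gene ID 12769, chr9:123767211-123783457) had 12, 22 and 23 fragments in normal MPs and 1, 1 and 0 in APL progenitors. The ratio was 24.8 (95% counting interval 6.57 to 210) from 57 against 2 fragments. limma called both down, with adjusted p = 0.000275 for Ccr7 and 9.15e-05 for Ccr9. Both passed the filter on low values through the normal MPs alone, so these calls carry little. The intervals cover counting error only.

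Dendritic cells and lymphocytes are the cells best known for Ccr7 and Ccr9. Of 8 dendritic cell markers, 7 were tested, 6 fell and none rose, with a summed level of 17.5 to 27.6 FPKM in normal MPs and 2.02 to 3.05 in APL. None of them was at 0 in all libraries of a group, and Zbtb46, a transcription factor of conventional dendritic cells, went from 319 ± 31.7 to 1.09 ± 0.198 scaled fragments. Of 10 T and NK cell markers, 9 were in the table and 6 tested, of which 2 fell and none rose. Their summed level was 237 to 264 FPKM in normal MPs and 243 to 268 in APL. Nearly all of it came from Nkg7, at 3428 ± 144 and 3605 ± 243 scaled fragments. Without Nkg7 the sum was 3.90 to 6.01 FPKM in normal MPs and 2.48 to 3.38 in APL. Cd3e and Gzma were at 0 in all MP libraries and Cd3g in all APL libraries. Of 8 B cell markers, 7 were in the table and 6 tested, of which 2 rose and 3 fell. Their summed level went from 14.5 to 16.1 FPKM in normal MPs to 257 to 297 in APL, nearly all of it from Igll1, a surrogate light chain gene of B-cell precursors, which with Vpreb1 made up the rises. Without Igll1 the sum was 12.9 to 15.6 FPKM in normal MPs and 7.08 to 9.52 in APL, and no B cell marker was at 0 in all libraries of a group. The normal MPs had been sorted as Lin-Sca-1-c-Kit+ cells. The part of mature lineage cells in the fall of Cx3cr1, Ccr7 and Ccr9 was not tested.

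Cxcr3 (gene ID 12766, chrX:101731536-101734147), a receptor of effector T cells for Cxcl9, Cxcl10 and Cxcl11, had 2, 1 and 2 fragments before scaling in normal MPs and 1, 1 and 0 in APL progenitors. The groups overlapped. The ratio of normal MPs to APL was 2.18 with a 95% counting interval of 0.357 to 22.9, and limma gave a log2 fold change of -0.65 (95% interval -1.66 to 0.36, adjusted p = 0.224). A difference was not detectable at this depth.

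**Figure D1:**
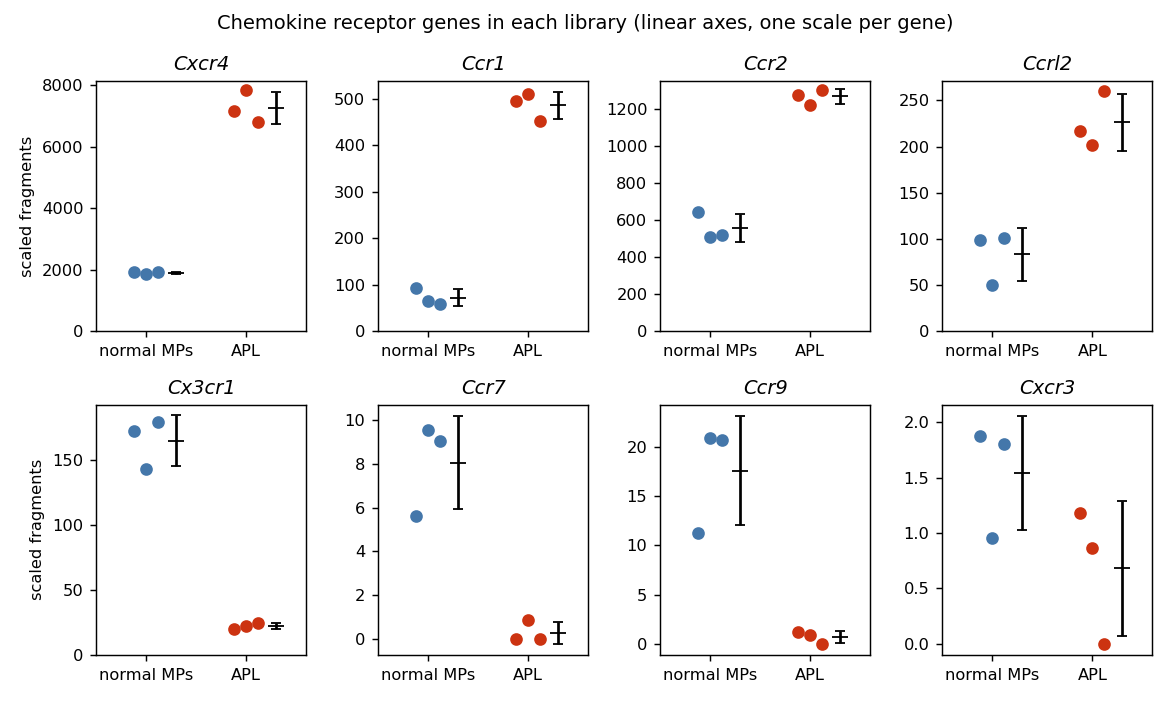
Scaled fragments (y axis, linear, one scale per gene) of the 8 receptors in each library; points are the 3 libraries of normal MPs (blue) and of c-Kit+ APL progenitors (red), and black marks are group means with SD. The 3 APL libraries lie above all MP libraries in the upper row (Cxcr4, Ccr1, Ccr2, Ccrl2) and below them for Cx3cr1, Ccr7 and Ccr9, and the groups overlap for Cxcr3.

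Levels of different receptors were compared per length, in FPKM. In normal MPs the order was Cxcr4 (46.9 ± 1.11 FPKM, n = 3), Ccr2 (5.80 ± 0.764), Ccrl2 (1.76 ± 0.595), Cx3cr1 (1.46 ± 0.165), Ccr1 (0.914 ± 0.219), Ccr7 (0.180 ± 0.0467), Ccr9 (0.145 ± 0.0468) and Cxcr3 (0.0453 ± 0.0149). Ccrl2 and Cx3cr1, and Ccr7 and Ccr9, overlapped in their libraries and so did not differ beyond their spread. In APL progenitors the order was Cxcr4 (177 ± 13.5 FPKM), Ccr2 (12.9 ± 0.407), Ccr1 (6.06 ± 0.535), Ccrl2 (4.76 ± 0.617) and Cx3cr1 (0.199 ± 0.0194), whose neighbours did not overlap. Cxcr3, Ccr7 and Ccr9 followed at 0.0198 FPKM or less and overlapped.

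**Figure D2:**
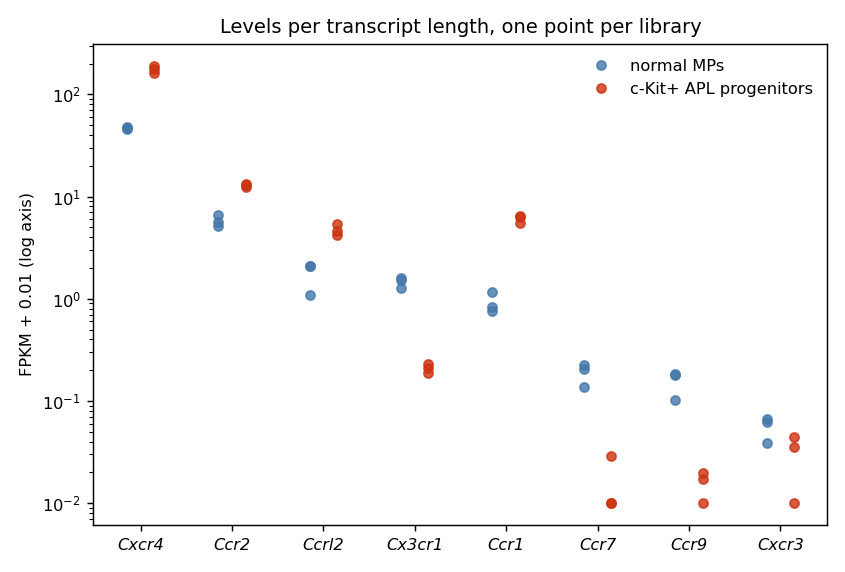
FPKM + 0.01 (log axis) of the 8 receptors, ordered by their mean in normal MPs; each point is 1 library of normal MPs (blue) or of APL progenitors (red). Cxcr4 is highest in both groups, Ccr1 moves above Ccrl2 in APL, and Cx3cr1 drops from 1.46 to 0.199 FPKM in mean.

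The balance between the receptors changed accordingly. Cxcr4 made up 80.3% to 83.9% of the summed FPKM of the 8 receptors in normal MPs and 87.2% to 89.1% in APL, while the sum rose from 54.4 to 59.5 FPKM in normal MPs to 188 to 214 in APL. The ratio of Ccr2 to Cx3cr1, receptors often set against each other to separate classical from patrolling monocytes, was 3.53 to 4.39 in the MP libraries and 59.6 to 74.4 in the APL libraries. The ratio of Ccr1 to Cx3cr1 was below 1 in every MP library (0.478 to 0.769) and 25.0 to 35.2 in APL. Ratios of Ccr1 to Ccr2 also separated, at 0.135 to 0.175 against 0.419 to 0.514.

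Of the 8 receptors, 5 lie on chromosome 9, and 3 of these (Ccr9, Ccr1 and Ccr2) lie within a stretch of 342 kb of a receptor cluster, from Ccr9 to Ccr2, with 4 other genes described here. Along it, Ccr9 and Cxcr6 were called down, Fyco1 and Xcr1 were not called, Ccr1 rose, Ccr3 was not called and Ccr2 rose. The falls rest on few fragments, so these calls carry little. Ccr9 passed the filter through the normal MPs alone. Cxcr6 had 4, 7 and 1 fragments before scaling in normal MPs and 1, 0 and 0 in APL, and its groups overlapped. The receptors of the cluster had whole fragments, within 0.1, before scaling. How fragments shared between close paralogs were counted was not tested, so values of the low genes of the cluster are uncertain. Cxcr6 and Fyco1 share 1 locus in the table. No gene of the table overlaps a locus of the 8 receptors.

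**Figure D3:**
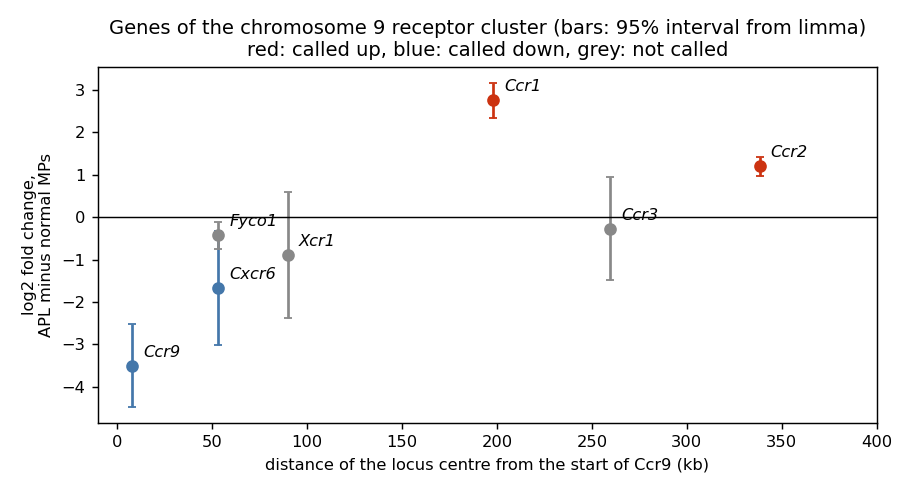
Log2 fold change, APL minus normal MPs (y axis; bars are 95% intervals from limma), of 7 genes of the chromosome 9 receptor cluster against the distance in kb of each locus centre from the start of Ccr9. Ccr1 (2.76) and Ccr2 (1.19) are called up, Ccr9 (-3.50) and Cxcr6 are called down on few fragments, and the other 3 genes are not called. Cxcr6 and Fyco1 share a locus and so a position.

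Of 16 other chemokine and atypical receptors listed, 13 were in the table and 11 were tested, of which 1 rose and 5 fell. The shares over all genes tested were 21.7% up and 24.4% down. Most were at a few fragments per library. Cxcr5, the B-cell follicle receptor, rose from 2.80 ± 0.972 to 32.1 ± 5.74 scaled fragments (log2 fold change 3.14, limma adjusted p = 2.81e-05). Ccr6 and Darc were at 0 in all APL libraries and at 3.72 ± 2.49 and 2.78 ± 0.870 scaled fragments in normal MPs. These genes and Cmklr1 passed the filter through the normal MPs alone, so their calls carry little. The others called down were Cxcr6 and Ccbp2. Cxcr2, a receptor of neutrophils and the only one of these above 100 scaled fragments, stood at 325 ± 40.0 and 310 ± 44.0, with a log2 fold change of -0.07 (95% interval -0.39 to 0.25, adjusted p = 0.673). These genes were named after their values were seen. With a minimum of 10 scaled fragments in 3 libraries none of the 5 falls was left, and without MP library 1 or 2 none was called.

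**Figure D4:**
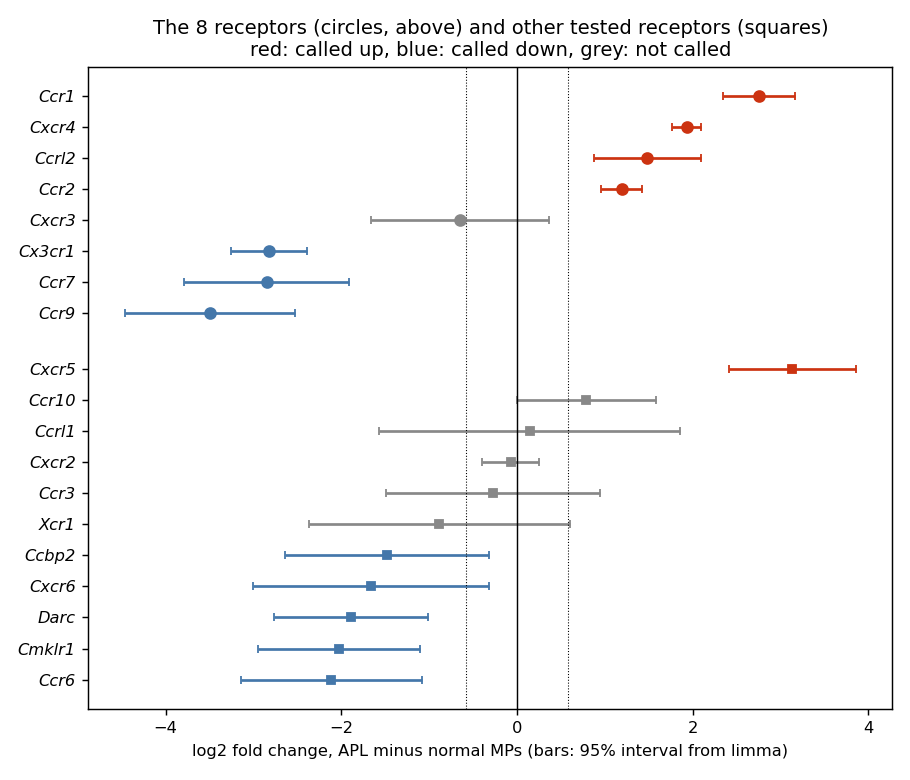
Log2 fold change, APL minus normal MPs (x axis; bars are 95% intervals from limma), of the 8 receptors (circles, upper block) and of 11 other tested receptors (squares, lower block); dotted lines mark a 1.5-fold change. The intervals of Cxcr4 (1.77 to 2.10) and Ccr2 (0.96 to 1.43) are narrow, while those of the low receptors span over 1 log2 unit.

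Among 36 chemokine ligands listed, 28 were in the table and 21 tested, of which 7 rose and 6 fell, beside 21.7% and 24.4% of all genes tested. The median log2 fold change was 0.50 for the 11 tested CC ligands and -0.10 for the 10 tested CXC, CX3C and XC ligands, beside -0.10 over all genes tested. The ligands of the 8 receptors are given by receptor. Cxcl12, the Cxcr4 ligand made by stroma, was 6.19 ± 2.13 scaled fragments in normal MPs and 1.09 ± 0.198 in APL (log2 fold change -1.74, limma adjusted p = 0.00294). Before scaling these were 4, 8 and 8 fragments in normal MPs and 1 in each APL library. The size of this fall is therefore poorly set, and the APL SD reflects only the scaling of 1 fragment. Ccl3, an inflammatory ligand of Ccr1, was 243, 108 and 321 in normal MPs and 1003, 783 and 1427 in APL. All APL libraries were above all MP libraries for Ccl3, despite a wide spread within groups (log2 fold change 2.35 ± 0.37 SE, adjusted p = 0.000489). Ccl6 and Ccl9, mouse ligands of Ccr1, went opposite ways: Ccl6 rose from 86.2 ± 13.9 to 200 ± 10.9 (adjusted p = 0.000159) and Ccl9 fell from 1934 ± 225 to 1171 ± 21.7 (adjusted p = 0.00011). Ccl9 did not pass the test against a 1.5-fold change (adjusted p = 0.235). Ccl5, which also binds Ccr1, was 12.04 ± 3.07 and 7.41 ± 1.09 and did not pass the test (adjusted p = 0.111).

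Ccl2, the main ligand of Ccr2, was found at 1.84 ± 0.877 and 4.08 ± 1.29 scaled fragments and did not pass the test (adjusted p = 0.0898, limma). Ccl25, the ligand of Ccr9, rose from 44.1 ± 6.34 to 89.7 ± 11.5 (log2 fold change 1.01, adjusted p = 0.00166). Cx3cl1, the ligand of Cx3cr1, was 18.2 ± 2.31 and 17.6 ± 4.61, with a log2 fold change of -0.07 (95% interval -0.71 to 0.57). Ccl19, a ligand of Ccr7, was listed at 0 in 1 MP and 2 APL libraries. The interferon-induced ligands of Cxcr3 rose together: Cxcl10 from 16.9, 8.57 and 18.9 scaled fragments in normal MPs to 609, 648 and 675 in APL, Cxcl9 from 3.99 ± 2.64 to 64.4 ± 4.59, and Cxcl11, which passed the filter through APL alone, from 0.935 ± 0.953 to 9.65 ± 2.37. Cxcl10 changed by 5.42 ± 0.27 on the log2 scale (SE, adjusted p = 3.2e-07). Cxcl10 and Cxcl11 share 1 locus in the table, so how fragments were divided between them is uncertain. Apart from Ccl3 and Ccl9, these ligands were chosen after their values were seen.

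**Figure D5:**
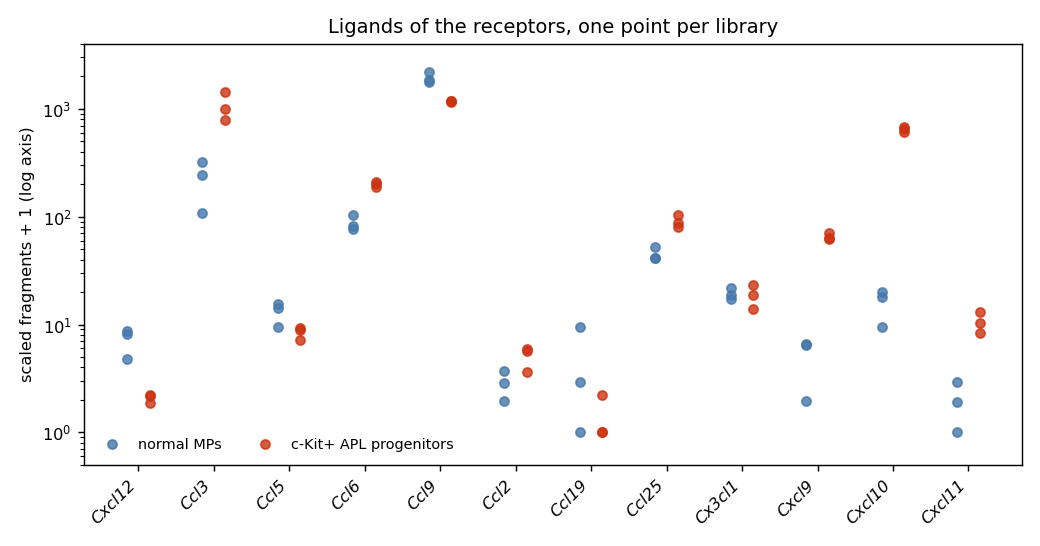
Scaled fragments + 1 (log axis) of 12 ligands of the receptors; each point is 1 library of normal MPs (blue) or APL progenitors (red). Cxcl9, Cxcl10 and Cxcl11 are higher in all 3 APL libraries, Cxcl12 (at a few fragments per library) and Ccl9 are lower, and Cx3cl1 overlaps.

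Of 34 genes that carry or end the receptor signal, 32 were tested, 6 rose and 6 fell. Among all 14595 genes tested, 21.7% rose and 24.4% fell, so these counts only describe the set. The median log2 fold change was 0.34 for G proteins and effectors and 0.13 for receptor kinases, arrestins and RGS proteins. Among G proteins and effectors, Gnai3 rose from 5719 ± 198 to 9241 ± 332 scaled fragments, Pik3cg, the kinase subunit driven by G-protein βγ, from 2219 ± 13.4 to 4878 ± 47.3, and the GTPase Rac2 from 7696 ± 1062 to 15553 ± 1183. Gng2, a G-protein γ subunit, fell from 989 ± 53.9 to 206 ± 11.6, and the Rac exchange factor Prex1 from 1957 ± 49.9 to 625 ± 23.3. Limma adjusted p-values of these 5 genes lay between 1.28e-07 and 5.77e-05. Gnai3, at a 1.62-fold rise, lost its call in the test against a 1.5-fold change (adjusted p = 0.213) and with libraries scaled to the same total (log2 fold change 0.56). The genes that moved thus included both gains and losses at the same step.

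Among the genes that end the signal, Adrbk2, which encodes the receptor kinase Grk3, stood at 1557, 1310 and 1188 scaled fragments in normal MPs and at 35.3, 38.1 and 33.3 in APL. The groups were far apart, and the 36.8-fold fall (log2 fold change -5.20 ± 0.14 SE, limma adjusted p = 1.41e-08) was larger than that of any of the 8 receptors by its fitted value. Its relative Adrbk1 did not pass the test (6754 ± 502 and 7808 ± 486, adjusted p = 0.052). The arrestins went opposite ways, Arrb1 from 4239 ± 334 to 2311 ± 70.2 and Arrb2 from 1674 ± 229 to 3638 ± 263. Of the RGS proteins, Rgs2 rose from 1462 ± 319 to 5960 ± 489 and Rgs10 fell from 1290 ± 236 to 204 ± 22.2. Rgs1, named after its values were seen, fell from 637 ± 244 to 11.4 ± 5.59.

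The genes most like each receptor across the 6 libraries were found by the root mean square distance between values of log2(scaled fragments + 1), each centred on its own mean, over 11061 genes with a mean of at least 50. Closest to Cxcr4 were Dclk2 (distance 0.058) and Slco4a1 (0.062), and closest to Ccr1 were Ncam1 (0.060) and Arhgap26 (0.10). Mtm1 and Pxk were closest to Ccr2 (0.047 and 0.051), and Retnlg and Cd14 to Ccrl2 (0.097 and 0.12). BC035044 and Padi2 were closest to Cx3cr1 (0.072 and 0.082). The nearest genes to Ccr7 (Fam129b, Trip6), Ccr9 (Fam46c, Slc39a14) and Cxcr3 (Snx29, Ggnbp1) were at 0.18 or more. With 2 groups of 3 libraries, such a distance reflects mainly the size of the group difference.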

How the data were processed

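RNA of the sorted cells (Ambion AM1560 kit) was sequenced after TruSeq library preparation. The submitters' processing notes list the build mm10 and the tools CASAVA 1.8 and TopHat2 2.0.6; the paper's methods give STAR with mm9, HTSeq-count and DESeq2. Which tool made the table was not given in the sources used here. The authors deposited FPKM values and a fragment signal (estimated fragments, scaled per library). Total fragments before scaling, recovered from the step between low values, were 20608715 to 28382785 per library, and 88.8% to 91.1% of values were then whole within 0.1; no count model was therefore used.

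Genes with at least 1 scaled fragment in at least 3 libraries were tested on log2(value + 1) with limma 3.58.1 (lmFit, eBayes with trend, R 4.3.3) and Benjamini-Hochberg adjustment. The fit was checked on simulated data in which a small share of genes changed, none of them low. That check does not cover low genes such as Ccr7, Ccr9 and Cxcr3, nor a change of much of the transcriptome. The log2(value + 1) scale understates changes of low genes. Counting intervals are exact (95%). Replicate libraries differed by more than sampling noise, and unevenly. The chi-square per gene was 107 and 97.2 for APL library 2 against APL libraries 1 and 3, and 11.2 between APL 1 and 3. For MP library 3 against MP libraries 1 and 2 it was 40.5 and 40.9, and 9.41 between MP 1 and 2. Loci in the table count starts from 0, since 7057 of 16361 starts matched RefSeq GRCm38 after adding 1 and 586 as deposited; positions are printed from 1. The same build holds the promoters.

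The 8 receptors, the gene lists and the tests were chosen with earlier results of these data known. Named genes were all 8 receptors; in each pathway list, called genes with separate groups and a mean of at least 500 scaled fragments, at most 6 per list; and the 2 genes most like each receptor. Alternatives (19 settings) covered pseudocount, filter, scaling, FPKM, voom, block, thresholds and leaving out each library. One receptor gene of the lists is not reported here.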

Additional observations from a re-analysis of the deposited data

How the results depend on the processing

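Under the 19 alternatives no receptor changed direction, and all 141 recomputed values of the 8 receptors stayed on the same side of the threshold. Ccr7, Ccr9 and Cxcr3 gave no value where the filter left them out, as for Ccr7 whenever an MP library was left out. With FPKM as the measure 1 receptor was called down (3 with scaled fragments), since Ccr7 and Ccr9 lie under the filter, and 1980 genes in all were called down (3558). Leaving out 1 library at a time, 4 receptors were called up each time and 2 to 3 down, with 2734 to 3256 genes up and 2913 to 3507 down over all genes. Of the other receptors, 2 were called up with quantile normalization, 0 with FPKM and 1 to 2 with a library left out (2 without APL library 2). Those called down numbered 0 with a minimum of 10, 3 with quantile normalization, 0 with FPKM, 3 in the test against 1.5-fold, and 0 to 5 with a library left out (0 without MP library 1 or 2, 1 without MP library 3, 3 without APL library 3). Ligands called up numbered 4 with FPKM and 7 to 8 with a library left out; those called down numbered 3 with quantile normalization, 3 with FPKM, 2 in the test against 1.5-fold and 5 to 7 with a library left out. Signalling genes numbered 6 to 7 up and 6 down with a library left out. They numbered 5 up with scaling to the same total, voom, the test against 1.5-fold and a fold over 2. Among the named pathway genes 221 values kept their call and 7 lost the call: Gnai3 under those 4 settings, Ccl9 under the last 2 and Arrb1 at a fold over 2. Why these counts moved was not tested beyond the filters named. The order by FPKM in APL kept 6 of 8 places without APL library 2, where Cxcr3, Ccr7 and Ccr9 are at 1 fragment or none. Scaling to the same total shifted the median over all genes tested from -0.10 to -0.23 (log2 fold change), and the share of calls that were down from 52.9% to 61.4%. Libraries of the same number in both groups had correlations of their deviations of 0.135, -0.0016 and 0.127 over 11061 genes. Those of different numbers had correlations from -0.277 to 0.197, so the numbers were not treated as pairs. The replicate block gave 3164 genes up and 3589 down, against 3167 and 3558 without it. It changed no call of a receptor. With the block the SE narrowed for Ccl3 (0.37 to 0.15) and Ccrl2 (0.27 to 0.20) and widened for Cx3cr1 (0.19 to 0.23). A pairing that holds for some genes only was not tested. Depth limits Ccr7, Ccr9 and Cxcr3, at 23 fragments or fewer per library.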
